A study of Homo sapiens with 3 samples.

Results

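The genes described here are 32 components of the apoptotic machinery: BCL2 family proteins, caspases and their adaptors, apoptosome proteins with their inhibitors, and the death receptor arm. They were taken by gene symbol from the deposited annotation, which gave 32 of 29403 genes and 33 of 53617 probe sets. CFLAR had 2 probe sets, which were averaged, and each of the other 31 genes had 1. All 32 passed the filter on low values, a mean log2 value over the arrays at or above the 30th percentile (3.52), as did 20582 genes in all.

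RNA came from SAS cells, a human oral squamous carcinoma line, and was measured on 3 Affymetrix Human Gene 2.0 ST arrays. Cells transfected with siRNA against ARID1A gave 2 arrays, called array 108 and array 109 after their titles, and mock cells gave 1, titled SAS NC. The labels give neither a dose nor a time, and leave unstated what the mock cells were given and whether arrays 108 and 109 carry the same siRNA. Separate cultures are not stated for arrays 108 and 109, so p-values here rest on spread between 2 samples that may be technical replicates. In the limma fit, that spread pooled over many genes weighs 4.49 degrees of freedom, against 1 for the gene's own. The single mock array has no measured spread at all. An exact permutation test of 2 arrays against 1 cannot give a p below 0.333.

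Apoptosis runs through 2 linked routes. In the mitochondrial route, BH3-only proteins sense stress and oppose the anti-apoptotic BCL2 proteins, effectors such as BAK1 permeabilise the outer mitochondrial membrane, and released cytochrome c assembles with APAF1 and caspase 9 into the apoptosome. In the death receptor route, ligands such as TRAIL recruit FADD and caspase 8 to their receptors, with CFLAR as the inhibitor of that step. XIAP and the related BIRC2 protein restrain caspases or receptor signalling, and cancer cells commonly evade death by altering such proteins.

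The targeted gene was lower on both siRNA arrays. ARID1A, a DNA-binding component of SWI/SNF remodellers, had log2 values of 5.72 on array 108, 5.32 on array 109 and 6.79 on the mock array, a mean difference of -1.27 ± 0.28 (SD, n = 2) with a limma adjusted p of 1. The negative control mean, the authors' background level, lay at log2 4.36 on array 108, 4.65 on array 109 and 4.43 on the mock array. All 10 squamous epithelial markers were above it on at least 1 array and 7 on all 3, while 4 of 7 leukocyte markers, PTPRC and CD3E among them, lay below it on every array, as did 4 of 5 fibroblast markers. Of the leukocyte markers above it, CSF1R differed from the mock array by 0.97 and 0.72 (limma adjusted p of 1). In bulk RNA, a change in the number of cells of a kind and a change in RNA per cell cannot be told apart.

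By the deposited values, most of the 32 genes lay less than 1.2-fold from their mock value on each siRNA array. Many of these values are identical between arrays, which does not show that a gene was unchanged. Of the 32 genes, 6 exceeded their mock value on both siRNA arrays (MCL1, BCL2L11, BIK, BMF, CFLAR and DIABLO), beside 13.1% of all genes tested, and 5 were lower on both (BAK1, BAD, CASP2, FADD and APAF1), beside 16.2%. Another 9 were identical to the last digit on all 3 arrays, beside 38.0% of all genes, and 8 equalled the mock array on 1 siRNA array, beside 19.9%. The median log2 difference was 0 on array 108 and on array 109, for the 32 genes as for all genes tested. These shares are near the background, so the counts are not a result about apoptosis genes.

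**Figure D1:**
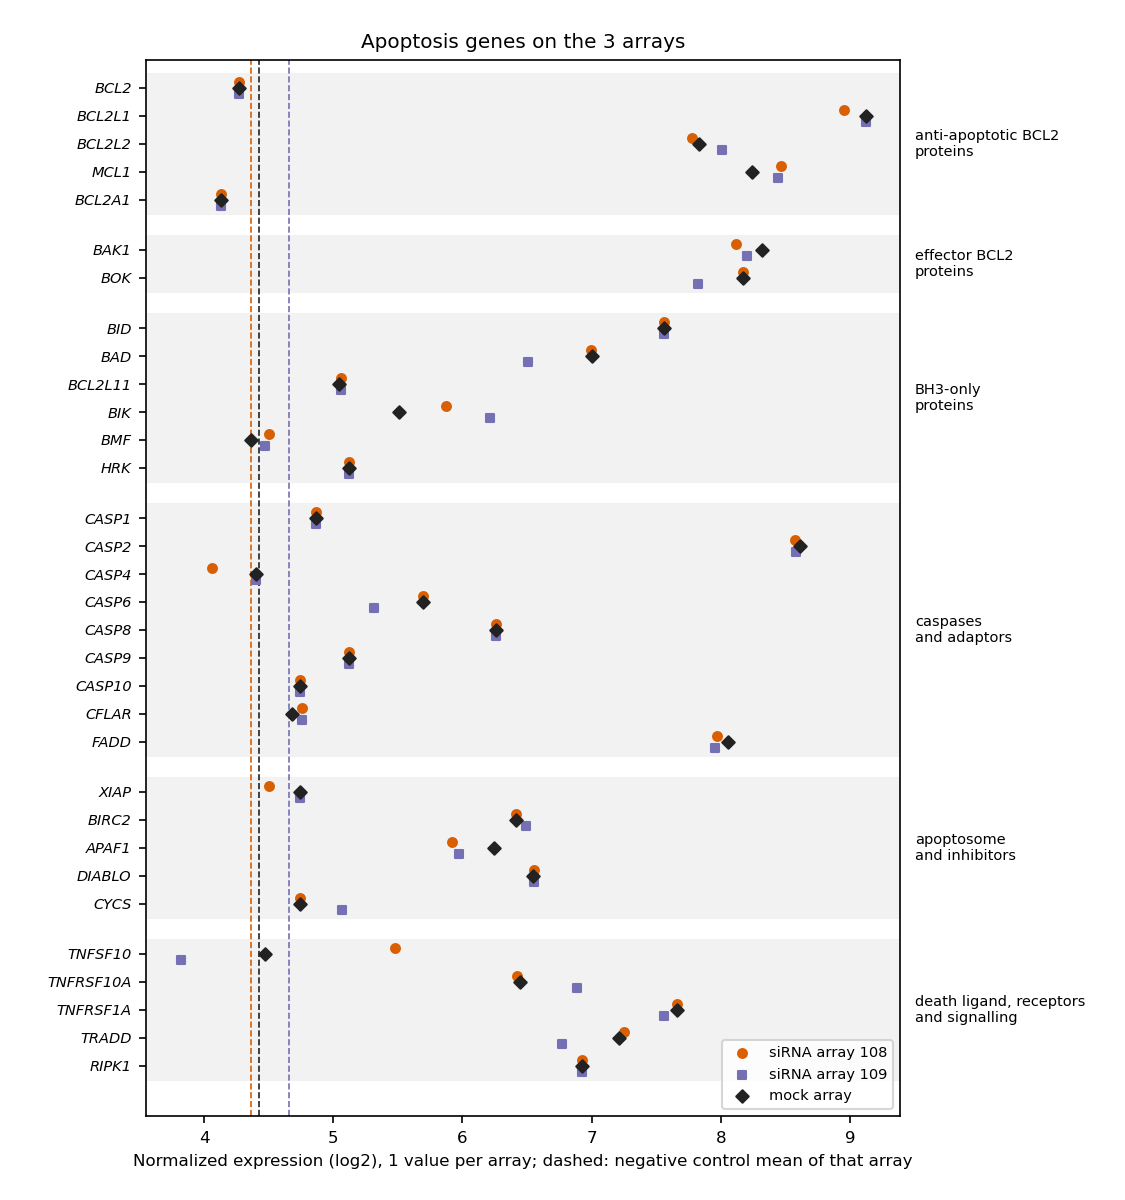
Normalized log2 expression (x axis) of the 32 genes, grouped by role, with 1 point for each of array 108, array 109 and the mock array. Dashed lines mark the negative control mean of each array (4.36, 4.65 and 4.43), and levels are to be compared between arrays for a gene, not between genes. TNFSF10 shows the widest spread, from 3.82 to 5.48.

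At a threshold of 1.2-fold on both siRNA arrays, a log2 difference of 0.263, BIK was higher and APAF1 was lower. That is 1 gene of 32 each way, beside 2.19% and 2.5% of all genes tested. No member reached 1.5-fold in the same direction on both arrays, where 0.34% of all genes were higher and 0.272% lower. In the limma fit across all genes, 0 members and 0.0% of 20582 genes passed a false discovery rate of 5%, and every member had a limma adjusted p of 1. Before adjustment, 1 member (BIK) and 1.97% of all genes had a limma p under 0.05.

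**Figure D2:**
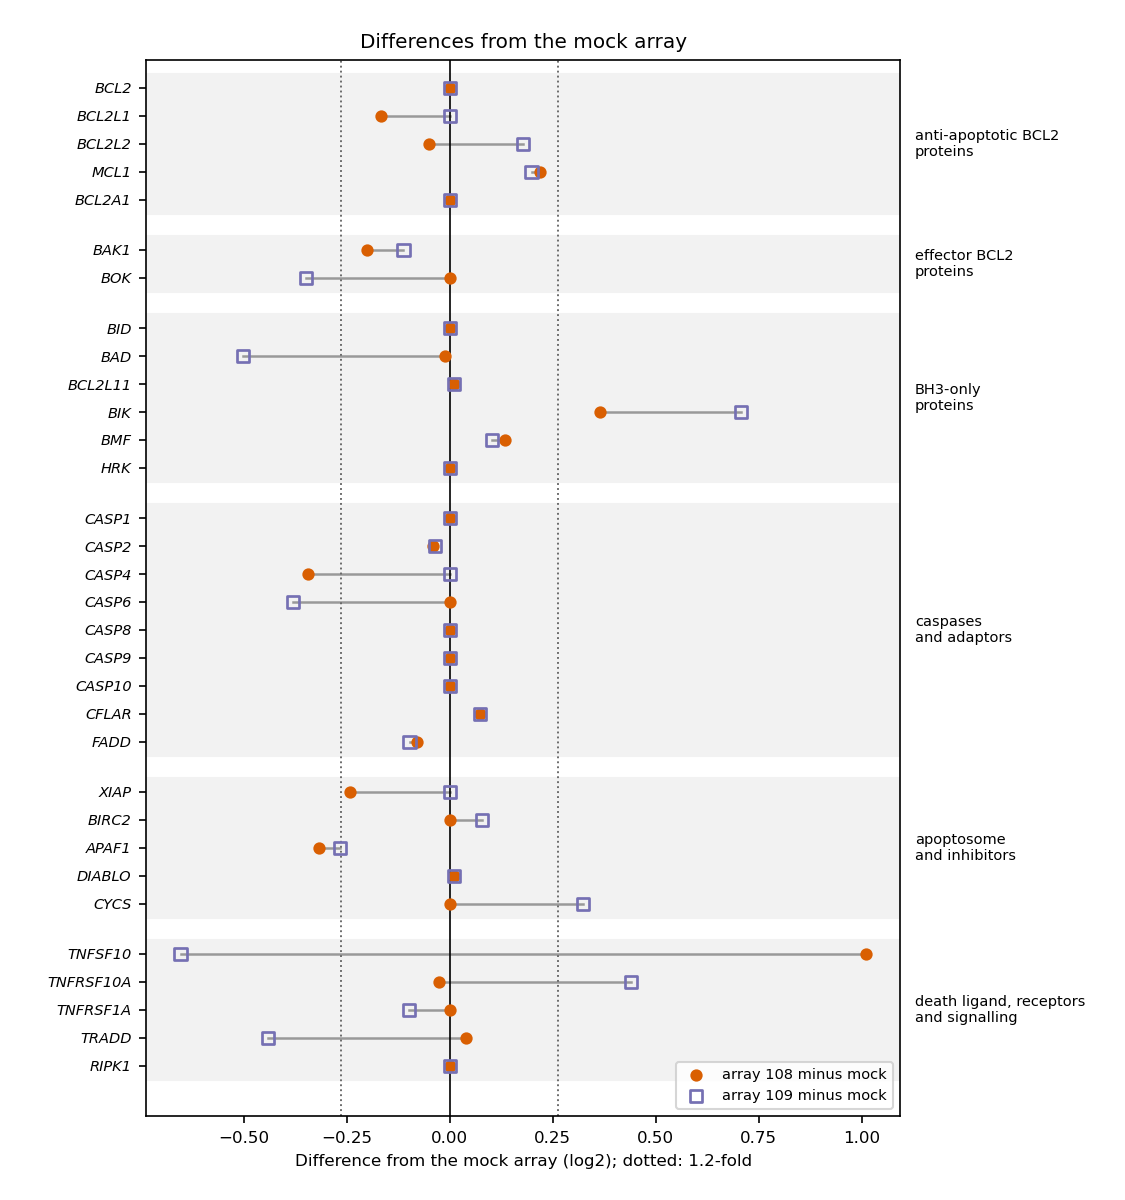
Log2 difference of array 108 (filled circles) and array 109 (open squares) from the mock array (x axis) for the 32 genes by role, with dotted lines at 1.2-fold. BIK lies right of the right-hand line on both arrays, APAF1 lies at or left of the left-hand line, and TNFSF10 lies on opposite sides at 1.01 and -0.65.

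The BH3-only proteins are the sensors that start the mitochondrial route. BIK, a BH3-only protein of the endoplasmic reticulum, stood at log2 5.87 on array 108, 6.21 on array 109 and 5.51 on the mock array. Both siRNA values lay above the mock value, 1.29-fold and 1.63-fold higher. The mean difference was 0.54 ± 0.24 (SD, n = 2), with a 95% interval from limma of 0.01 to 1.06, a limma p of 0.0474 before adjustment and an adjusted p of 1. The siRNA arrays were themselves 1.27-fold apart.

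BAD, which is held inactive by phosphorylation when survival signals are present, did not follow BIK. Its log2 values were 7.0 on array 108, 6.51 on array 109 and 7.01 on the mock array. Array 108 and the mock array differed by 0.01, and array 109 alone was lower, at -0.50, so the mean difference of -0.26 ± 0.35 (SD, n = 2) rests on that array. BMF, which is tied to the cytoskeleton, was 0.13 and 0.10 higher than the mock array but lay above the negative control mean on array 108 alone. BCL2L11, the gene of BIM, differed by 0.01 on each array. BID, which links caspase 8 to mitochondria, and HRK were identical on all 3 arrays, at 7.56 and 5.12. Of the 6 BH3-only genes, 3 were thus higher on both arrays, 1 lower on both and 2 identical. Over all genes tested, 13.1% were higher on both, 16.2% lower on both and 38.0% identical. Among the 6, BIK was the member past 1.2-fold on both, and the counts only describe the group.

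The anti-apoptotic proteins bind and neutralise the BH3-only proteins and the effectors. MCL1, a short-lived guardian of the mitochondrial membrane, had log2 values of 8.46 on array 108, 8.44 on array 109 and 8.24 on the mock array. The siRNA arrays were within 0.02 of each other and 1.16-fold above the mock array on average, a difference of 0.21 ± 0.01 (SD, n = 2). Its 95% limma interval ran from -0.21 to 0.63, with a limma p of 0.264 before adjustment.

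BCL2L1, the gene of BCL-XL, was at 8.95 on array 108, against 9.12 on both other arrays. BCL2L2, the gene of BCL-W, gave 7.78, 8.01 and 7.83 in that order of array 108, array 109 and mock. Neither differed from the mock array in the same direction on both. BCL2 itself and BCL2A1, a target of NF-kB, were identical on all 3 arrays and lay below the negative control mean on each, so no level above background was measured for either.

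Both effector genes were at or below their mock value on each siRNA array. BAK1, which forms pores in the mitochondrial outer membrane, was at 8.12 on array 108, 8.20 on array 109 and 8.31 on the mock array, a difference of -0.16 ± 0.06 (SD, n = 2) with a limma p of 0.4 before adjustment. BOK, a related effector, gave 8.17 on array 108 and in mock cells, and 7.82 on array 109. The lower BOK value was thus that of 1 array.

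In the apoptosome group, APAF1, the scaffold that activates caspase 9, was lower on both siRNA arrays. Its log2 values were 5.92 on array 108, 5.97 on array 109 and 6.24 on the mock array, 1.25-fold and 1.2-fold lower. The siRNA values lay within 0.05 of each other, and the mean difference was -0.29 ± 0.04 (SD, n = 2). The 95% limma interval ran from -0.72 to 0.13, with a limma p of 0.139 before adjustment. On array 109 the difference of -0.27 was only just past 1.2-fold, and with quantile scaling APAF1 no longer passed it, at a mean of -0.26.

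XIAP, a direct inhibitor of caspases, was at 4.50 on array 108 and at 4.75 on both other arrays. CYCS, cytochrome c, was at 5.07 on array 109 and at 4.75 on both other arrays. Each therefore differed on a single array, in opposite directions. DIABLO, which antagonises XIAP, was 0.01 higher on each siRNA array. BIRC2, a ubiquitin ligase of TNF receptor signalling, gave 6.41 on array 108 and in mock cells, and 6.49 on array 109.

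Among caspases and their adaptors no gene passed 1.2-fold on both arrays, beside 2.19% of all genes tested higher and 2.5% lower. Of these 9 genes, 4 were identical on all 3 arrays, beside 38.0% of all genes tested. CASP8 (6.26) and CASP10 (4.75), the initiators of the receptor route, CASP9 (5.12), the initiator of the mitochondrial route, and CASP1 (4.87), the inflammasome caspase, were the identical genes. CASP2, a caspase of the DNA damage response, lay within 0.04 of its mock value on each array. FADD, the adaptor that recruits caspase 8, gave 7.97 on array 108, 7.95 on array 109 and 8.05 in mock cells.

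CASP6, an executioner caspase, gave 5.70 on array 108 and in mock cells, and 5.32 on array 109, 1.3-fold lower there. CASP4, a caspase that senses bacterial lipopolysaccharide inside cells, was at 4.06 on array 108 and 4.40 on both other arrays, all below the negative control mean. CFLAR, the inhibitor of caspase 8, was 0.07 higher on each siRNA array as the mean of its probe sets. Its probe sets disagreed: the brighter was at 5.87 on both siRNA arrays and 5.72 on the mock array, and the dimmer was at 3.65 on all 3. In the RefSeq gene order, CFLAR, CASP10 and CASP8 are neighbours on chromosome 2, and CASP4 and CASP1 flank CASP5 on chromosome 11.

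The widest gap between the siRNA arrays among the 32 genes lay in the death receptor arm. TNFSF10, the gene of the death ligand TRAIL, stood at log2 5.48 on array 108, 3.82 on array 109 and 4.47 on the mock array. Array 108 was 2.01-fold above the mock array, and array 109 differed from it by -0.65 on the log2 scale, under the negative control mean of its array. The mock value was itself barely above the negative control mean of the mock array, 4.43, and 296 other probe sets share it there. The 2.01-fold difference thus has a baseline near background. In the authors' deposited table, TNFSF10 on array 108 (ratio 2.01) is the single one of the 32 genes with a flag for a 2-fold difference, and 0 are flagged on array 109. The mean difference of 0.18 ± 1.18 (SD, n = 2) is small beside that spread, with a limma p of 0.79 before adjustment and a 95% limma interval from -1.42 to 1.77.

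Between the siRNA arrays, TNFSF10 was at least 1.77-fold higher on array 108, taking the negative control mean as the level of array 109, and the measured values were 3.17-fold apart. By its measured values TNFSF10 was 1 of 32 members past 1.2-fold in opposite directions, beside 1.03% of all genes, but its value on array 109 is under the negative control mean there, so no fold below the mock array can be given. These comparisons set 1 array against 1, with no test, and were chosen after the values of TNFSF10 were seen.

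**Figure D3:**
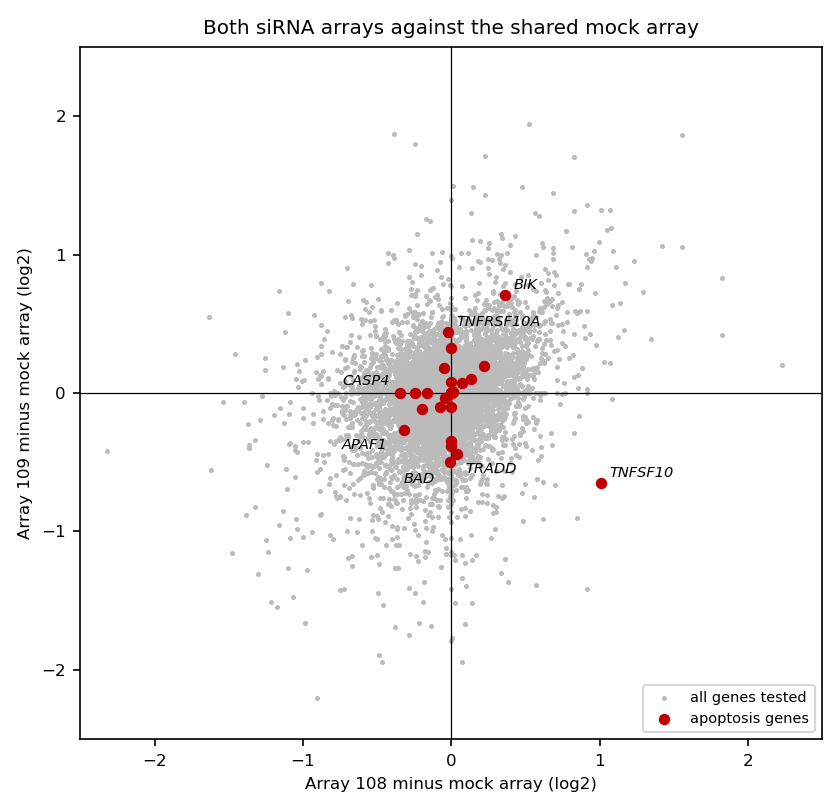
Log2 difference from the shared mock array on array 108 (x axis) and array 109 (y axis) for the 20582 genes tested (grey) and the 32 apoptosis genes (red). TNFSF10 lies apart in the lower right, at 1.01 and -0.65, BIK in the upper right and APAF1 in the lower left.

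TRAIL is also an interferon-induced gene, so the interferon response genes were set beside it. All 27 listed genes, 1 of them under an old and a new symbol, were measured, and 21 were tested. On array 108, 11 of the 21 were above the mock array and 0 below, with a median difference of 0.08, where 5026 of all 20582 genes tested were above and 5733 below. On array 109, 5 were above and 7 below, with a median of 0, where 5083 of all genes were above and 5583 below. The squamous markers leaned the same way, with 8 of 10 above the mock array and 0 below on array 108 (median 0.23) against 6 above and 3 below on array 109 (median 0.05). On array 108, 17 of the 27 measured genes lay above the negative control mean, against 10 on array 109 and 15 in mock cells, and over all genes measured 51.3%, 45.4% and 49.7% did. Another 10, IFI27, MX1 and XAF1 among them, lay below it on every array. The count of genes above mock on both arrays was 5 of 21, beside 13.1% of all genes tested. Below on both were 0, beside 16.2%, and 3 were past 1.2-fold higher on both, beside 2.19%. GBP1, an interferon-induced GTPase, gave 4.65 on array 108, 4.28 on array 109 and 3.48 in mock cells, above the negative control mean on array 108 alone. IFIH1, a sensor of double-stranded RNA, was at 6.46, 6.43 and 5.97. No interferon gene passed the limma test after adjustment, and the part of these genes in the TNFSF10 values was not tested.

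The promoters of TNFSF10 and APAF1 are shown because these genes gave the widest gap between the siRNA arrays and the member past 1.2-fold lower on both. The sequences are from RefSeq (GRCh38.p14) and run 5′ to 3′ along the gene's strand, from 250 bases before the start to 50 after it, with motif matches in capitals. Both strands were searched for GAAANNGAA, the core of the interferon response element, and for TTTNGCGC, the E2F motif. They were also searched for TGANTCA, the motif of AP-1, and for TATAAA, the TATA box bound by the basal machinery. The other motifs were GGGCGG, the GC box of SP1 family proteins, and TGACGTCA, the cyclic AMP response element. The TNFSF10 window lies at chr3:172523381-172523680 on the minus strand, and the APAF1 window at chr12:98645040-98645339 on the plus strand.
TNFSF10: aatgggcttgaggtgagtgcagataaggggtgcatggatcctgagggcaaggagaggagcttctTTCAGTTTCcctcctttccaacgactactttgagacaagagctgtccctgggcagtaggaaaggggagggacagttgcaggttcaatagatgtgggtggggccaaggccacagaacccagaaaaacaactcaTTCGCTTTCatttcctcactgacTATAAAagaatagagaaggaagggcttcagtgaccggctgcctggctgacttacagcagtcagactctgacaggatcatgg
APAF1: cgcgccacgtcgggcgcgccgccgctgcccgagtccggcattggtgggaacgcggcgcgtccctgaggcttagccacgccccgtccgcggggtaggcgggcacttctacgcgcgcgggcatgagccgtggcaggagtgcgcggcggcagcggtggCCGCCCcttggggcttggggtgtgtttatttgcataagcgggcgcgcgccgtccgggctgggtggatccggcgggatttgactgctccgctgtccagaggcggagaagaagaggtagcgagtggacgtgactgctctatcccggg

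The TNFSF10 window held 2 matches to the interferon response element core, at -186 and -54 from the start as TTCAGTTTC and TTCGCTTTC on the opposite strand, and a TATA box at -31. The APAF1 window held 1 GC box, at -95, and no match to the other motifs. CpG pairs numbered 3 in the TNFSF10 window and 42 in that of APAF1, against a median of 14 over 35116 windows. A window was at hand for 25 of the 32 genes. The interferon core was in windows of 7 of them (BCL2A1, BIRC2, CASP8, CFLAR, DIABLO, RIPK1 and TNFSF10), beside 8.11% of all windows, and the TATA box in 5, beside 11.5%. The GC box was in 20, beside 45.0% of windows. The E2F motif was found in the window of BCL2L1 (1.79% of all windows), the AP-1 motif in those of CASP8, CFLAR and FADD (7.71%) and the cyclic AMP motif in that of BIRC2 (1.85%). Members were counted by gene and the background by window. The background windows were not matched to the members in gene class or CpG content. The motif counts are therefore a description, and enrichment was not tested.

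Of the receptors and their signalling partners, TNFRSF10A and TRADD were past 1.2-fold on array 109 alone. TNFRSF10A, a receptor for TRAIL, was at 6.42 on array 108, 6.89 on array 109 and 6.45 on the mock array, so array 109 was 1.36-fold above the mock array while array 108 was 0.02 below it. TRADD, the adaptor of TNF receptor 1, gave 7.25 on array 108, 6.77 on array 109 and 7.21 in mock cells, 1.36-fold lower on array 109 alone. The receptor TNFRSF1A gave 7.66 on array 108 and in mock cells, and 7.56 on array 109. RIPK1, the kinase that directs TNF signalling to survival or death, was identical on all 3 arrays at 6.92. None of the 5 genes of this arm differed in 1 direction on both siRNA arrays: 0 were higher and 0 lower. Over all genes tested, 13.1% were higher on both and 16.2% lower.

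Differences of at least 1.2-fold between the siRNA arrays were more common than shared ones, among the members as over all genes. Over all genes tested 14.9% differed between the siRNA arrays, against 2.19% higher and 2.5% lower on both. A shared difference has to pass on both arrays, so it is the stricter count. Of the 32 genes, 9 were at least 1.2-fold apart between array 108 and array 109 (28.1%), beside 14.9% of all genes tested. On array 108, 4 genes were at least 1.2-fold from the mock array (APAF1, BIK, CASP4 and TNFSF10), beside 12.0% of all genes. On array 109 there were 9 (28.1%), beside 12.9%: APAF1, BAD, BIK, BOK, CASP6, CYCS, TNFRSF10A, TNFSF10 and TRADD. Of these 9, BAD, BOK, CASP6, TNFSF10, TRADD and APAF1 were lower than the mock array, and BIK, CYCS and TNFRSF10A higher. The CASP4 values on array 108 and the mock array and the TNFSF10 value on array 109 lie under the negative control mean. With 1 array on each side, none of these gaps has a test.

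The identical values are a feature of the deposited table that touches these genes directly. Of the 9 identical genes, 7 lay above the negative control mean on all 3 arrays. Each of the 9 values was shared on an array by 3 to 397 other probe sets. HRK and CASP9 even had the same value as each other, 5.12, as did CASP10 and the mock values of XIAP and CYCS, at 4.75. Shared values also enter differences given above. On array 109, 32 other probe sets share the value of APAF1, 15 that of BAD, 222 that of XIAP and 285 that of BMF. On the mock array, 22 share that of CASP6, 215 that of CYCS and XIAP, 296 that of TNFSF10 and 331 that of CASP4. The values of BIK were shared by no other probe set. The cause was not tested, and an identical value in this table does not show that a gene was unchanged.

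**Figure D4:**
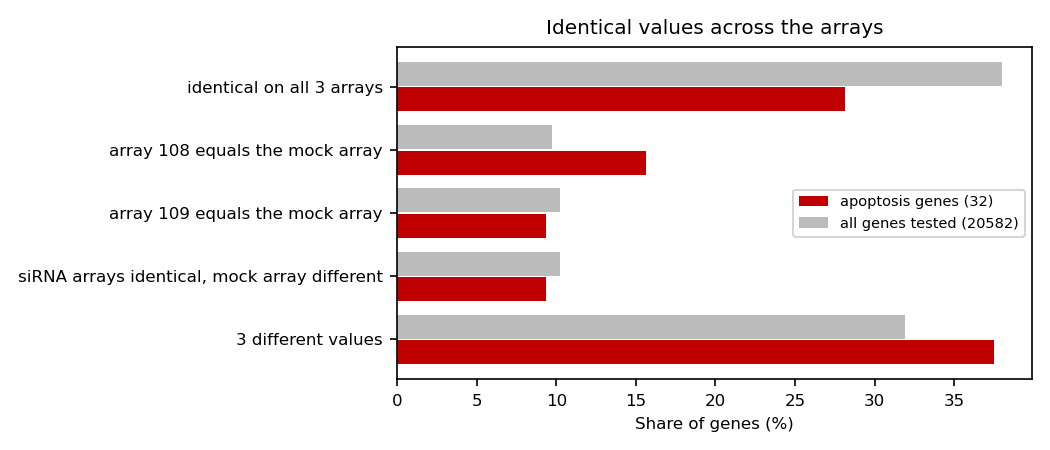
Share of genes (x axis, %) by which arrays hold exactly the same log2 value, for the 32 apoptosis genes (red) and all 20582 genes tested (grey). Identical values on all 3 arrays make up 28.1% of the apoptosis genes and 38.0% of all genes, and array 108 equals the mock array in 15.6% and 9.74%.

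Other genes of the death pathways, a list of 56 taken whole from the pathways, gave a similar picture. Of 49 that passed the filter, 7 were higher on both siRNA arrays, 7 lower on both and 14 identical on all 3, with a median difference of 0, and 0 passed the limma test after adjustment. Over all genes tested, 13.1% were higher on both, 16.2% lower on both and 38.0% identical. BIRC3, a ubiquitin ligase of NF-kB signalling next to BIRC2 on chromosome 11, was at 5.12 on array 108, 5.88 on array 109 and 4.44 on the mock array, a difference of 1.06 ± 0.54 (SD, n = 2) with a limma p of 0.0198 before adjustment. It was the only gene of the 49 past 1.2-fold in the same direction on both arrays, whereas BIRC2 lay within 0.08 of its mock value. The mock value of BIRC3, 4.44, was barely above the negative control mean of that array, 4.43, so its difference has a baseline near background. Its array 108 value, 5.12, equals that of HRK, which 132 other probe sets share on that array.

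The next in rank among the higher genes were TNFRSF21, death receptor 6, at 0.39 and 0.22, CYLD, a deubiquitinase, at 0.19 on each array, and BBC3, the p53 target PUMA, at 0.06 and 0.08. Among the lower genes were HTRA2, a mitochondrial protease that antagonises XIAP, at -0.24 and -0.32, BIRC5, survivin, at -0.17 and -0.13, VDAC2 at -0.07 on each and BAG4 at -0.30 and -0.07. These log2 differences were mostly under 1.2-fold. The effector BAX and the necroptosis protein MLKL were identical on all 3 arrays.

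**Figure D5:**
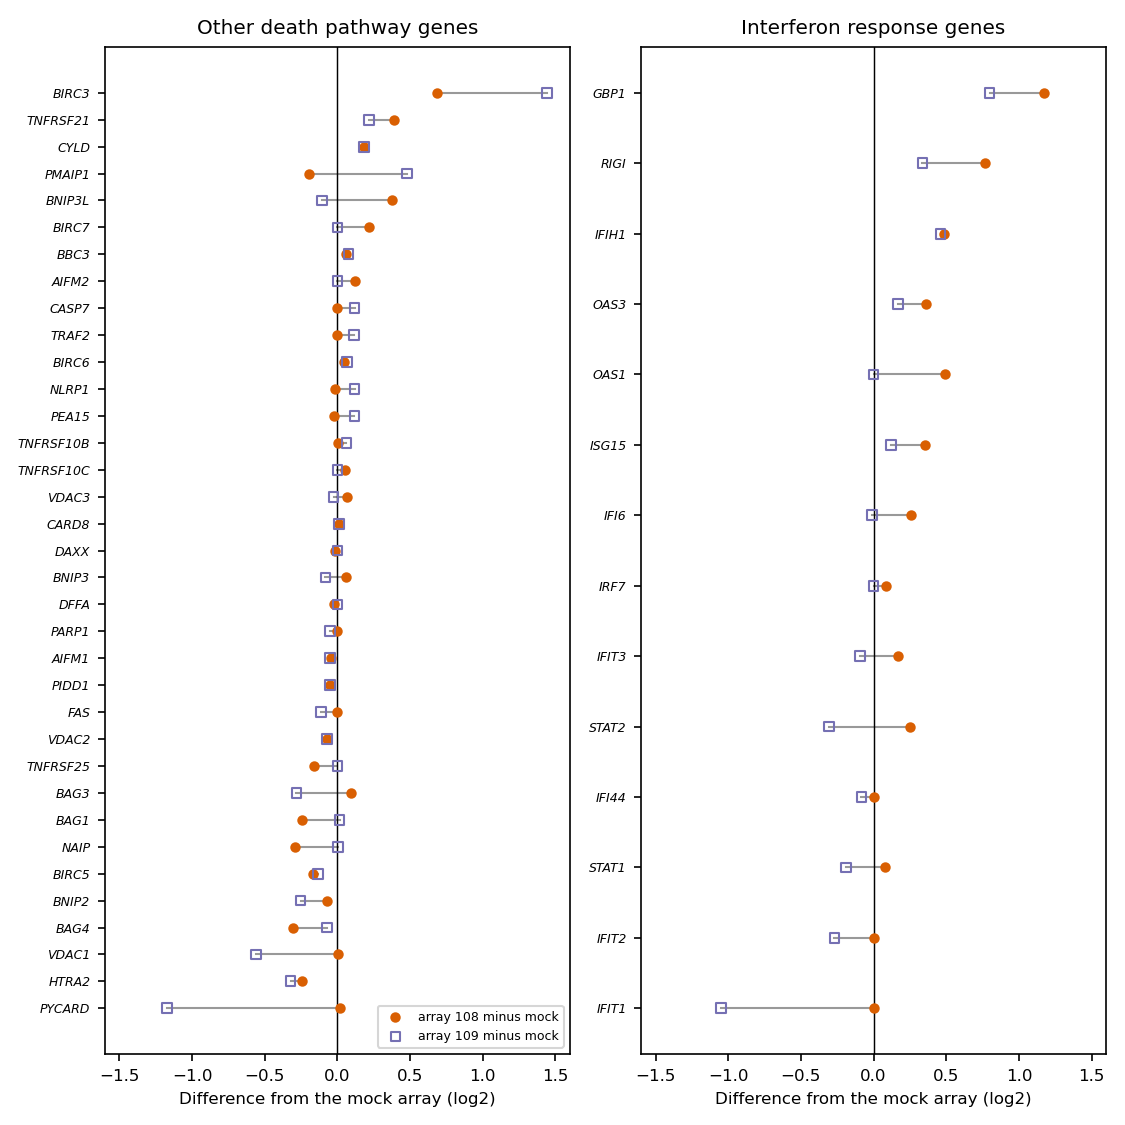
Log2 difference from the mock array (x axis) on array 108 (filled circles) and array 109 (open squares) for other death pathway genes (left) and interferon response genes (right), sorted by the mean of both, without the genes identical on all 3 arrays (14 of 49 and 7 of 21). BIRC3 leads the left panel at 0.68 and 1.44, and 11 interferon genes lie above 0 on array 108 against 5 on array 109.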

How the data were processed

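Gene expression was measured on 3 arrays, 2 of ARID1A siRNA and 1 of mock SAS cells. The authors used Affymetrix Expression Console, per the submitters' processing notes; its version and probe summary were not given in the sources used here. The deposited value table holds normalized log2 expression per probe set. The deposited table of each sample gives linear intensity, whose log2 matches the value table within 5e-05, and the authors' ratio against mock cells, per the file headers.

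Symbols were taken from the per-sample tables and updated through Entrez identifiers with RefSeq. Probe sets of a gene were averaged. A filter at the 30th percentile of mean log2 value kept 20582 of 29403 genes. The siRNA and mock arrays were compared with limma 3.58.1 in R 4.3.3, two-sided, with Benjamini-Hochberg adjustment over all genes tested and 1 residual degree of freedom. The prior spread (SD 0.152, 4.49 degrees of freedom) came from the 10664 genes whose siRNA values differ, because identical values have a spread of 0. The mock array was assumed to vary like the siRNA arrays. The number of arrays limits the precision. A run on simulated data checked that the fit returns added differences on average, which does not test its p-values or its prior. There the mock array was given the spread of the siRNA arrays, so the run cannot check that assumption.

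The text names all 32 members by role, and up to 4 higher and 4 lower other death pathway genes and 2 interferon genes, ranked by the smaller of both same-direction differences; others named there were chosen after their values were seen. Of 3 endothelial markers 2 were measured, with 1 (CDH5) above the negative control mean, on array 108. The members, lists and fit were chosen with earlier results of these data known. Alternatives covered the filter, scaling, probe set choice, prior, fold threshold, source of values and leaving out an siRNA array. Protein sequences were not used here.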

Additional observations from a re-analysis of the deposited data

How the results depend on the processing

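The number of arrays is the main limit, and the mock array has no replicate. No paired analysis was possible because 2 siRNA arrays share 1 mock array. The count of members past the false discovery rate stayed at 0 except with the default limma prior, which called 2, BCL2L11 and CFLAR, both with identical siRNA values. The count of members higher on both arrays was 6, and 12 with quantile scaling, 10 with cyclic loess and 3 on genes with different siRNA values alone. The count lower on both was 5, and 8 with median centring and 11 with cyclic loess. Scaling turns identical values into small differences, for all genes as for the members. Shares of all genes were counted in the main setting alone, so these counts are not to be set beside them. At 1.2-fold the count was 1 each way, and with quantile scaling 0 were lower. It was 2 higher at 1.1-fold, and 0 each way at 1.5-fold and 2-fold. The median difference was 0, and -0.003 with median centring, -0.0008 with cyclic loess and -0.0661 on genes with different siRNA values alone.

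Without array 108 or array 109 in turn, the count of members above the mock array was 10 and 8 and that below it 10 and 10. Of all 20582 genes tested, 5083 and 5026 were above it and 5583 and 5733 below. At 1.2-fold 3 and 2 members were higher and 6 and 2 lower, and their median was 0 each time. Past 1.2-fold in either direction were 12.9% and 12.0% of all genes tested. The direction of the mean difference turned for 4 genes. Without array 108 and without array 109, TNFSF10 was at -0.653 and 1.0098, BCL2L2 at 0.1784 and -0.0497, TNFRSF10A at 0.4397 and -0.0247, and TRADD at -0.4397 and 0.0397. With quantile scaling CASP2 was at 0.0037, against -0.04. The cause was not tested.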
